A study of Mus musculus with 6 samples.

Results

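The vasodilator peptide adrenomedullin and the parts of its receptor were examined in the carotid body, a small organ beside the carotid artery's bifurcation that senses blood oxygen. The genes are Adm (the peptide's precursor), Calcrl (the receptor) and Ramp1, Ramp2 and Ramp3 (the receptor's accessory proteins). Every probe set annotated with one of these symbols alone was taken, which gave 10 of 45037 probe sets: 2 for Adm, 3 for Calcrl, 3 for Ramp1, 1 for Ramp2 and 1 for Ramp3. A further 2 probe sets annotated with a member together with another gene were left out. Expression was compared between 2 inbred, untreated mouse strains, DBA/2J and A/J, with 3 Affymetrix Mouse 430 2.0 arrays each. All animals were male, from one supplier and 28 days old. Each array held RNA pooled from 36 or 38 carotid bodies of 18 or 19 DBA/2J mice, or from 38 to 42 carotid bodies of 19 to 21 A/J mice. The spread between arrays is therefore that between pools, not between mice, and the labels name no engineered allele for either strain.

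Adrenomedullin is cut from a larger precursor and becomes active once its C-terminal end is amidated. It acts on the G protein-coupled receptor encoded by Calcrl, which reaches the cell surface and gains its ligand specificity only in a pair with a receptor activity-modifying protein (RAMP): with RAMP1 it mainly binds calcitonin gene-related peptide, with RAMP2 or RAMP3 adrenomedullin. The receptor raises cyclic AMP, relaxes vascular smooth muscle and is needed for the formation of blood and lymphatic vessels. Adm is a known target of the hypoxia-inducible factors, and the peptide has been found in the oxygen-sensing type I cells of the carotid body.

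The sequence upstream of Adm is shown because this gene carried the main difference between the strains, with that of Ramp3 beside it as the receptor component with the largest difference. Both are the 250 bases before the gene start in RefSeq's table (GRCm38.p6, which is C57BL/6J sequence and neither of the strains measured), written 5' to 3' on the gene's strand. Capitals mark matches to the core of the hypoxia response element, searched as ACGTG and GCGTG on both strands.
Adm, chr7:110627407-110627656, plus strand: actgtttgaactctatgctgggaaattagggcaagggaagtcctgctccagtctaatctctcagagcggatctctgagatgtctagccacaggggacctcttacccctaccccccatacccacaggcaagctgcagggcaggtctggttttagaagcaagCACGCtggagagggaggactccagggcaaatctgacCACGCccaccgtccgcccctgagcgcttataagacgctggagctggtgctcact
Ramp3, chr11:6658283-6658532, plus strand: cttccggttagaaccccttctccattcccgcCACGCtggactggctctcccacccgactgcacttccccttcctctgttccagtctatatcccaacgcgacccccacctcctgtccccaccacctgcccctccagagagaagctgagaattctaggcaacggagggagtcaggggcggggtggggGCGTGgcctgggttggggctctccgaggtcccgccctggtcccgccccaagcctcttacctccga
The Adm window held 2 matches, both GCGTG read on the opposite strand (CACGC as printed), which begin 90 and 54 bases before the start. The Ramp3 window also held 2, beginning 219 and 65 bases before the start, and no matches overlapped. The windows of Calcrl and Ramp1 held 0, and Ramp2 had no window to search. Of all 32851 windows of that length, 38.6% held at least 1 match, so a match by itself is common, and the RefSeq table was matched for 4 of the 5 genes.

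The arrays were comparable in overall level, with median signals of 163.6 to 183 for DBA/2J and 163.8 to 182.8 for A/J. The deposited values are linear intensities, and no detection call was used here, so whether a dim probe set lies above background is unknown. Correlations of log2 values over 45037 probe sets, which are not independent replicates, were 0.939 to 0.964 within a strain and 0.925 to 0.946 between strains. The 3' to 5' signal ratio of Gapdh, a sign of RNA length, was 2.50, 3.28 and 1.73 on DBA/2J arrays 1 to 3 and 1.74, 4.87 and 1.81 on A/J arrays 1 to 3. Of 12 type I cell markers, 11 were measured, with a lowest signal of 96.3. Their summed signal was 66285 to 68867 in DBA/2J and 31253 to 36364 in A/J. Of the 11, 7 rose in DBA/2J, with the largest log2 differences for Insm1 and Slc18a1 (2.93 and 2.83). For marker lists, rose and fell mean an adjusted p under 0.05 in the limma test described below. Of all 13006 genes in that test, 2.17% were called higher and 1.6% lower in DBA/2J. Markers of skeletal muscle went the other way from the type I markers: all 11 measured of 12 fell, among them Ckm and Mylpf. The sums of the muscle list were 1019 to 2346 in DBA/2J and 48325 to 113122 in A/J. The lowest of these signals was 11.3. In DBA/2J, Myh1 read 28.5 to 75.6 and Myh4 11.3 to 103.5. Both lay below 114.1, the floor that the brightness filter described below set for the mean over all 6 arrays. Tnni2 and Tnnc2 had DBA/2J means of 79.7 and 97.6, also below it. Each of these genes passed the filter through its A/J values. Whether such DBA/2J values lie above background is unknown. In such bulk samples, more cells of a type and more RNA per cell cannot be told apart, for any gene below.

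The strains were compared with limma on log2(signal + 16) over the brightest 60% of probe sets by mean, 27022 in all, with p-values adjusted over all of them. Of the 10 member probe sets, 7 were bright enough for this test. Of these 7, both Adm probe sets passed an adjusted p of 0.05, higher in DBA/2J, and the other 5 did not pass. Across the array 883 of 27022 probe sets (3.27%) passed, 1.86% higher and 1.41% lower in DBA/2J. The DBA/2J and A/J arrays did not overlap for 3 of the 7, the Adm pair and Ramp3, against 21.1% of all probe sets tested; 11.5% of these were separated with DBA/2J higher, the direction of the 3. The median log2 difference was 0.14 over the 5 member genes, taking the brightest probe set of each, and 0.03 over all 13006 genes.

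Adm, the ligand, was several times higher in DBA/2J carotid bodies on both of its probe sets. Probe set 1447839_x_at, the brighter of the pair, read 5192.3, 4213.0 and 4846.4 on DBA/2J arrays 1 to 3, against 573.7, 1646.8 and 1074.3 on A/J arrays 1 to 3. Each DBA/2J array was above each A/J array, and the A/J arrays differed among themselves, with array 2 highest and array 1 lowest. The means were 4751 ± 497 in DBA/2J and 1098 ± 537 in A/J (SD, n = 3 arrays each). The log2 difference was 2.22 (SE 0.33, limma adjusted p = 0.00778), a 4.64-fold difference with a 95% interval of 2.76 to 7.82. The x in this probe set's name marks probes that may also match other sequences, and its annotation gives the gene without an accession. The plain probe set 1416077_at is therefore of weight: it read 3067.6, 1412.2 and 3008.3 in DBA/2J, against 403.3, 505.2 and 375.0 in A/J. Here the A/J arrays lay close together and DBA/2J array 2 stood well below the remaining DBA/2J arrays, though above all A/J arrays. Its means were 2496 ± 939 in DBA/2J and 428 ± 68.5 in A/J, and its log2 difference was 2.43 (SE 0.31, limma adjusted p = 0.00317), a 5.38-fold difference with an interval of 3.33 to 8.69.

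The difference held for every pairing of a DBA/2J with an A/J array. Over the 9 such pairs the fold ranged between 2.56 and 9.05 on 1447839_x_at and between 2.80 and 8.18 on 1416077_at. All 9 pairs exceeded the 1.5-fold minimum that the series' design text sets. Left out in turn, single arrays moved the log2 difference of 1447839_x_at between 1.82 (without A/J array 1) and 2.57 (without A/J array 2). Without DBA/2J array 1 its adjusted p was 0.0508. On 1416077_at the same range was 2.24 to 2.79, with the adjusted p between 0.000221 and 0.0227, so that probe set passed in all 6 cases.

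**Figure D1:**
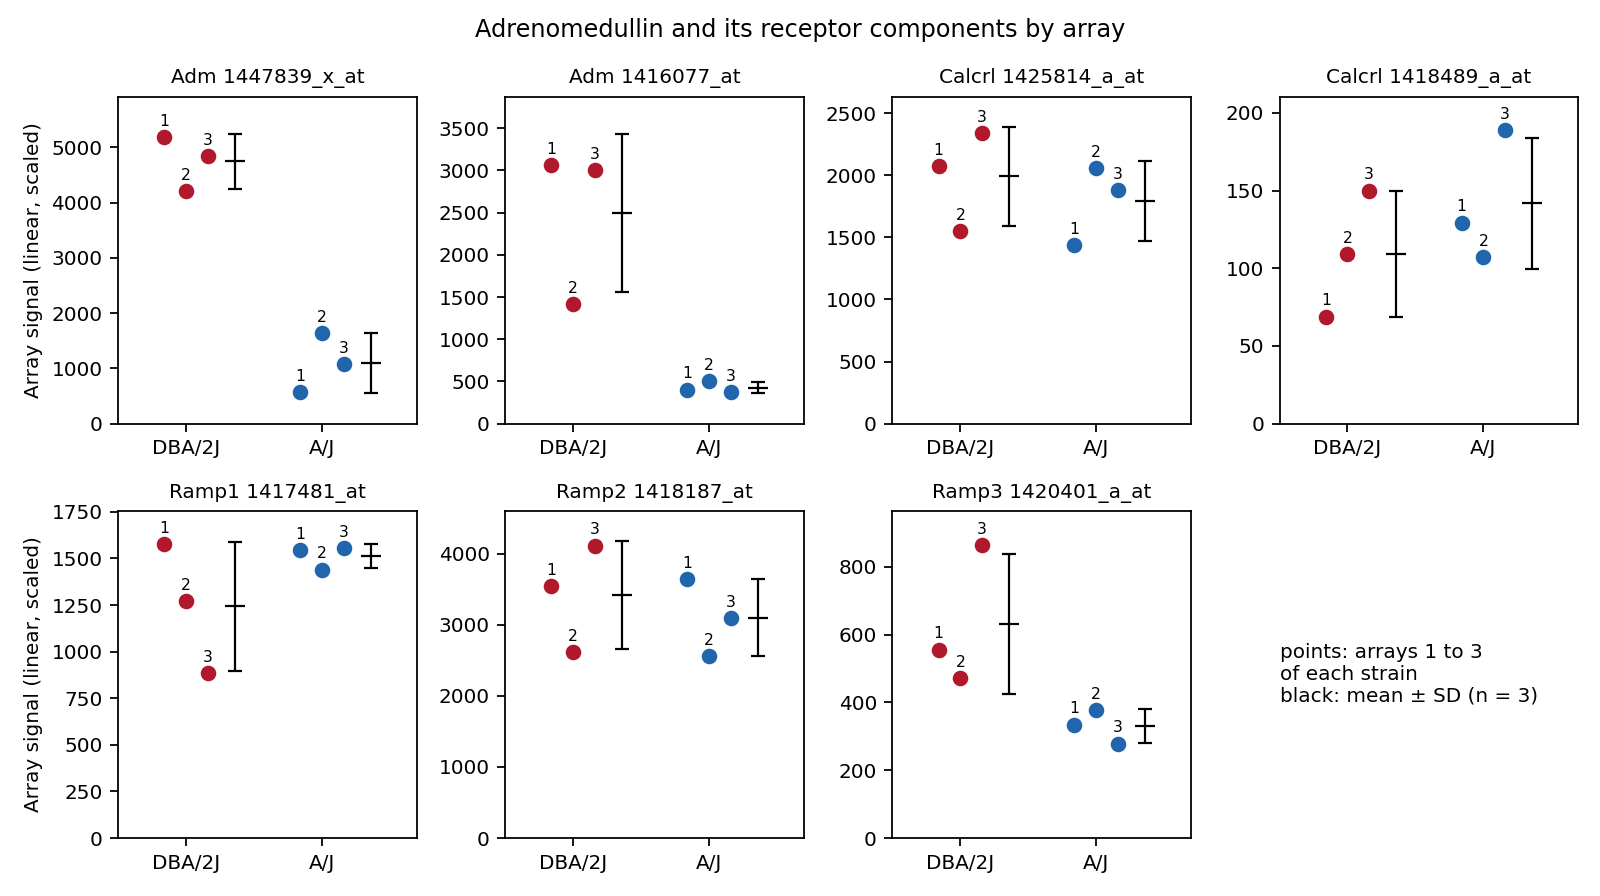
Linear array signal of the 7 member probe sets that were tested, with points for arrays 1 to 3 of DBA/2J (red, left) and A/J (blue, right) and black bars for mean ± SD (n = 3). Both Adm panels separate the strains, from 1412.2 up in DBA/2J and up to 505.2 in A/J on 1416077_at, while the Calcrl, Ramp1 and Ramp2 panels overlap.

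For Calcrl, the receptor itself, no difference beyond the spread between arrays was seen. Its bright probe set, 1425814_a_at, gave 2075.7, 1552.0 and 2339.8 in DBA/2J, against 1437.9, 2060.1 and 1880.4 in A/J. The arrays of the strains were interleaved, with means of 1989 ± 401 in DBA/2J and 1793 ± 320 in A/J. The log2 difference of 0.14 (SE 0.22) did not pass (limma adjusted p = 0.834), and its interval of -0.36 to 0.64 leaves room for a change of up to 1.56-fold upward. A dim probe set of the gene, 1418489_a_at, read 68.9, 109.1 and 150.0 in DBA/2J and 129.4, 107.2 and 188.9 in A/J. It leaned the other way (log2 difference -0.35, SE 0.33, adjusted p = 0.697), within the spread between arrays. The third, 1459536_at, lay below the brightness filter at 81.7 to 114.2 in DBA/2J and 40.6 to 138.9 in A/J.

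Ramp1, the partner that turns the receptor towards calcitonin gene-related peptide, had its signal on 1417481_at. It read 1575.5, 1271.7 and 885.8 in DBA/2J, against 1545.7, 1440.8 and 1556.8 in A/J. DBA/2J array 3 was the lowest and DBA/2J array 1 the highest of all 6, so the groups overlapped, and the coefficient of variation was 27.8% in DBA/2J and 4.23% in A/J. The log2 difference was -0.32 (SE 0.23, limma adjusted p = 0.60, 95% interval -0.84 to 0.20). The other probe sets of Ramp1, 1431413_at and 1447474_at, lay below the filter, at 20.0 to 114.1 in DBA/2J and 24.6 to 135.3 in A/J over both, with overlapping arrays.

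Ramp2, the partner that makes an adrenomedullin receptor and is needed for vessel development in mice, read 3540.2, 2613.7 and 4113.3 in DBA/2J, against 3643.0, 2565.1 and 3095.9 in A/J. In both strains array 2 was the lowest, and the groups overlapped almost wholly. The means were 3422 ± 757 in DBA/2J and 3101 ± 539 in A/J, with a log2 difference of 0.13 (SE 0.22, limma adjusted p = 0.851, 95% interval -0.36 to 0.63).

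Ramp3, the other partner for adrenomedullin, was the one receptor component whose arrays did not overlap. It read 556.0, 471.4 and 864.0 in DBA/2J, against 334.8, 378.6 and 278.8 in A/J. DBA/2J array 3 was well above the other DBA/2J arrays, and the gap between DBA/2J array 2 and A/J array 2 was small next to that. The log2 difference of 0.86 (SE 0.26) did not pass over the whole array (limma adjusted p = 0.130, unadjusted p = 0.00829), a 1.82-fold difference with an interval of 1.22 to 2.72. Of 18 other settings it passed in 1, with array weights, which give less influence to arrays far from the fit (0.86, adjusted p = 0.0258). In that setting 11.1% of all probe sets tested passed, against 3.27% without weights. Without any one array its adjusted p was 0.0524 to 0.355. With the rule in the series' design text (1.5-fold in 6 of 9 pairs and a p under 0.05, here the unadjusted limma p), Ramp3 passed along with both Adm probe sets, 3 of 7, all higher in DBA/2J, against 10.1% of all probe sets tested (5.23% higher in DBA/2J).

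The difference of Adm was larger than that of each receptor component. Within each array, log2 Adm (1447839_x_at) minus log2 of the component was higher on the DBA/2J arrays than on the A/J arrays by 2.07 for Calcrl, 2.53 for Ramp1, 2.08 for Ramp2 and 1.35 for Ramp3. For all 4 components the 3 DBA/2J arrays lay above the 3 A/J arrays. The exact two-sided permutation test gave p = 0.1 each, adjusted p = 0.1 over the 4 comparisons, which is the smallest that 3 arrays against 3 allow, so the threshold of 0.05 could not be reached. The nearest approach was for Ramp3, where the differences were 2.47 to 3.19 in DBA/2J and 0.75 to 2.08 in A/J.

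**Figure D2:**
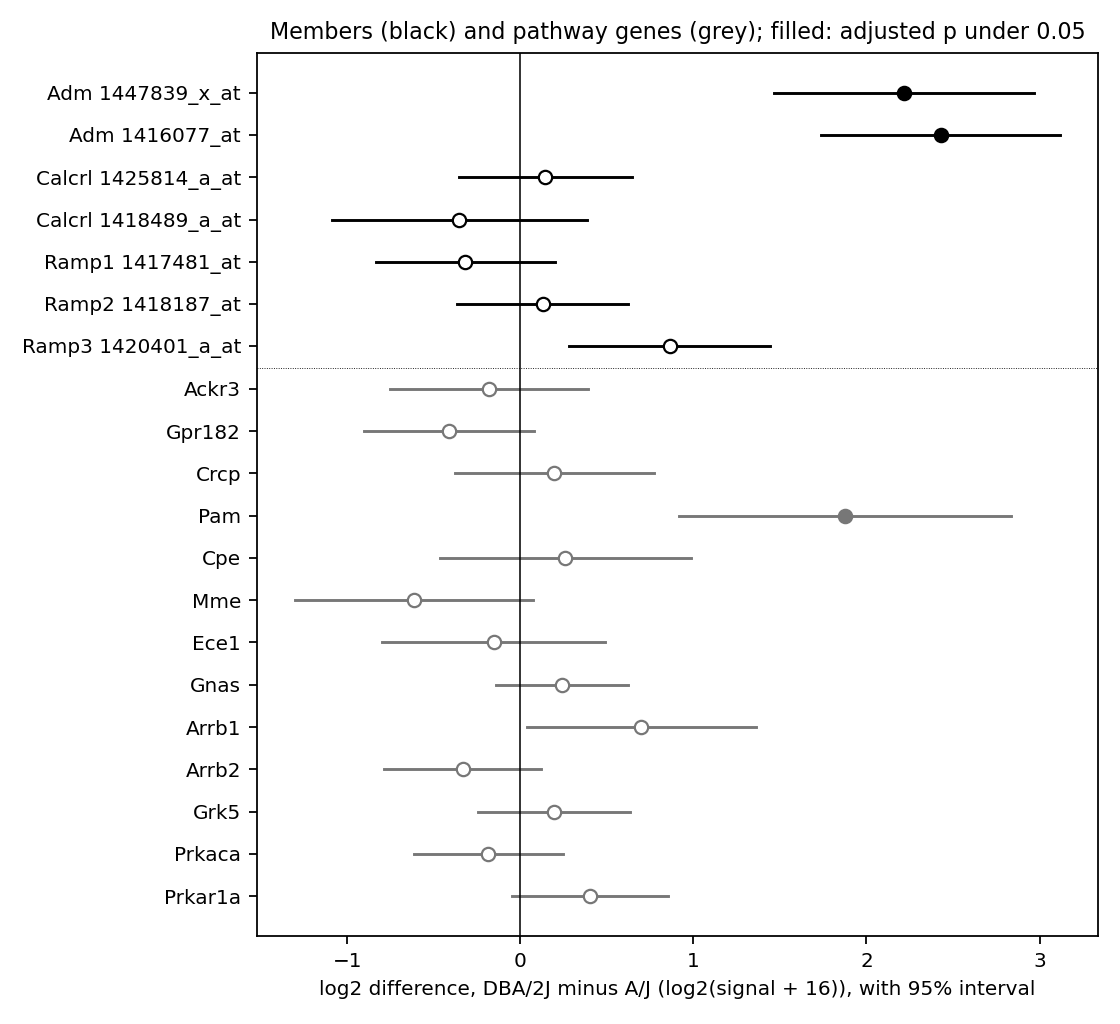
Log2 difference, DBA/2J minus A/J, with 95% interval for the 7 tested member probe sets (black, top) and 13 measured genes of the pathway (grey, below), where filled points passed an adjusted p of 0.05. The Adm probe sets at 2.22 and 2.43 and Pam at 1.88 are filled, and Ramp3 at 0.86 is open.

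Among other genes of the pathway, the amidating enzyme stood out. Of 20 listed genes, 17 had a named probe set and 13 were bright enough to test: 1 rose in DBA/2J, 0 fell and 12 did not pass, next to 2.17% higher, 1.6% lower and 3.77% in all of the 13006 genes. The median log2 difference of the 13 was 0.19. Pam, the monooxygenase that amidates adrenomedullin and many other peptides, read 3692.1, 1382.8 and 5286.0 in DBA/2J, against 678.7, 967.5 and 798.6 in A/J. DBA/2J array 2 was again the lowest of its strain but still above all A/J arrays. The log2 difference was 1.88 (SE 0.42), at the very edge of the threshold (limma adjusted p = 0.0499). It passed in 4 of 18 other settings, and the adjusted p was 0.000721 without DBA/2J array 2 and 0.0973 to 0.206 without one of the other arrays.

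The 3 related peptides that had a named probe set were dim. The probe sets of Adm2 (a related peptide that uses the same receptors), Calcb (a calcitonin gene-related peptide) and Iapp (amylin) lay below the filter, at 15.5 to 83.5 in DBA/2J and 13.6 to 93.8 in A/J. Calcr, the calcitonin receptor, was below it too. The listed genes without a named probe set were not analysed here. Calca, a further listed peptide of this family, was among them, so its level is unknown here. Of the other receptors, Ackr3, which takes up adrenomedullin without G protein signalling, had a log2 difference of -0.18. Gpr182, once proposed as an adrenomedullin receptor, had -0.41, and Crcp, a component of the calcitonin gene-related peptide receptor, had 0.20. None of the 3 passed (limma adjusted p between 0.434 and 0.818).

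Enzymes of peptide breakdown and the proteins that carry the receptor's signal did not pass either. Mme, the membrane protease neprilysin that degrades adrenomedullin, read 581.4 to 1223 in DBA/2J and 1019 to 1761 in A/J (log2 difference -0.62, SE 0.30, limma adjusted p = 0.393). Cpe, a protease of peptide hormone maturation, had a log2 difference of 0.26 on one probe set and -0.32 on another, and Ece1, likewise such a protease, had -0.15. Arrb1, a beta-arrestin that ends receptor signalling, had 0.70 (adjusted p = 0.291), and Arrb2, the other beta-arrestin, -0.33 with another probe set at 0.78. Prkar1a, a regulatory subunit of the cyclic AMP-dependent kinase, had 0.40 (adjusted p = 0.396). Its catalytic partner Prkaca had -0.18, the stimulatory G protein gene Gnas 0.24 and the receptor kinase Grk5 0.19, none of which passed. On the probe set that stands for each gene, the arrays of the strains did not overlap for 5 of the 13 genes (Pam, Arrb1 and Prkar1a higher in DBA/2J, Arrb2 and Gpr182 lower), next to 21.1% of all probe sets tested.

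Between the strains, Adm moved with the type I cell markers and against the muscle markers, and the part of either in its difference was not tested. Within A/J the type I sum was highest on array 3 (36364, against 34964 on array 2), unlike Adm. Within DBA/2J it was lowest on array 2 (66285), like Adm. On a log2 scale Adm differed by 2.22 and 2.43, while the 11 type I markers had a median difference of 1.37 and ranged between 0.18 (Kcnk3) and 2.93 (Insm1). Among the A/J arrays Adm was highest on array 2 on both probe sets, the array with the least muscle signal (48325 against 113122 and 96022 on A/J arrays 1 and 3). Among the DBA/2J arrays it was lowest on array 2, which had the most muscle signal of that strain (2346 against 1075 and 1019). Part of that DBA/2J muscle signal came from probe sets that may not lie above background. In both strains array 2 also had the highest 3' to 5' ratio of Gapdh (4.87 in A/J and 3.28 in DBA/2J). Array 2 thus stood out in both respects, though with the least muscle signal in A/J and the most in DBA/2J. The part of muscle signal or RNA length in the order of Adm within a strain was not tested. With A/J arrays 1 and 3 both left out, the log2 differences were 1.51 and 2.19 with adjusted p of 0.128 and 0.223, in a fit where the single A/J array was assumed to vary like the DBA/2J arrays. With each array's mean of the muscle list as a covariate they turned to -1.20 and -0.76 (limma adjusted p = 0.766 and 0.844). That mean almost tracks the strain: over probe sets the median SE was 1.13 with it and 0.24 without.

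The 10 blood endothelial markers had a median log2 difference of 0.32, with 0 called by limma at the adjusted threshold and 2 at an unadjusted p under 0.05. Their summed signal was 8511 to 11665 in DBA/2J and 7315 to 8742 in A/J, so the ranges overlapped, and DBA/2J array 3, where Ramp3 and Ramp2 were highest, also had the highest sum. All 4 measured of 5 lymphatic endothelial markers had negative differences, of which Pdpn, also expressed by fibroblasts and other cells, fell (log2 difference -1.36). Their median was -0.47, with sums of 2883 to 3987 in DBA/2J and 5094 to 6225 in A/J. The 8 smooth muscle and pericyte markers (median -0.30), the 8 measured of 10 sensory and ganglion neuron markers (-0.01), the 6 measured of 8 glial markers (-0.56) and the 6 macrophage markers (-0.22) had 0 calls by limma. These 4 lists held 3, 3, 3 and 2 genes at an unadjusted p under 0.05. The share of all genes at that unadjusted p is not given here. Such counts, also that of the blood endothelial list, are therefore only described. The glial sums were 18708 to 26303 in DBA/2J and 27026 to 36079 in A/J, and the macrophage sums 14054 to 18558 in DBA/2J and 18791 to 19839 in A/J, neither overlapping. The sums of the smooth muscle and neuron lists overlapped. The 6 measured of 8 adipocyte markers had a median log2 difference of -1.29. Of these Gpd1, Ucp1 and Fabp4 fell (-1.51, -1.31 and -0.77), and the sums did not overlap, at 25422 to 41146 in DBA/2J and 54785 to 73983 in A/J. The part of these cell types in the values of Adm and the receptor components was not tested.

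**Figure D3:**
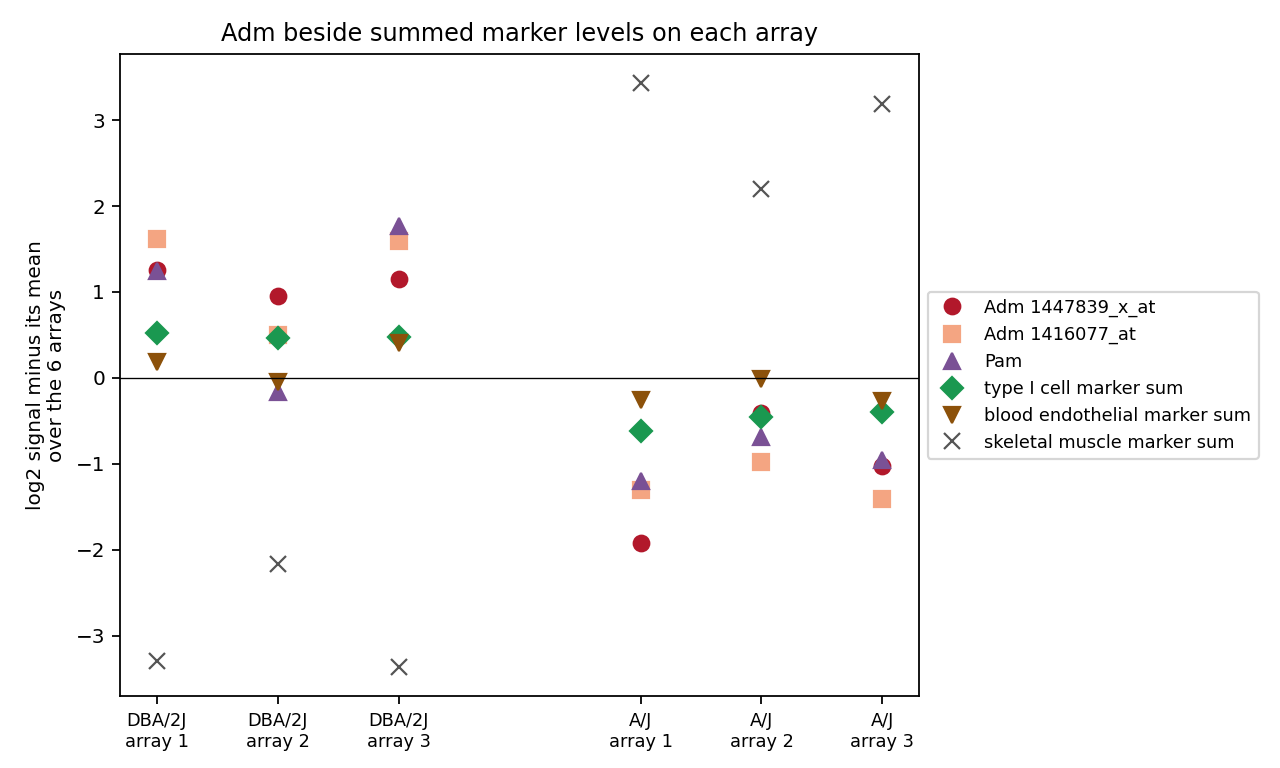
Log2 signal minus its mean over the 6 arrays for both Adm probe sets, Pam and 3 summed marker lists, by array, with DBA/2J left and A/J right. Adm and the type I marker sum lie above 0 on the DBA/2J arrays and below 0 on the A/J arrays, while the skeletal muscle sum runs the opposite way.

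Other hypoxia-inducible genes went both ways. Of 15 listed targets, all measured, Pdk1 and Car12 rose, Hk2 fell and 12 did not pass. Of all 13006 genes, 3.77% passed, 2.17% higher and 1.6% lower in DBA/2J. Their median log2 difference was -0.15. Car12, a carbonic anhydrase, had a difference like that of Adm (2.19), and Pdk1, a kinase that restrains pyruvate entry to mitochondria, had 1.10. Vegfa, the vascular growth factor, had 0.76 and Slc2a1, a glucose transporter, -0.75, and neither passed (limma adjusted p = 0.195 and 0.0811).

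Across the 6 arrays, the genes whose pattern was most like that of Adm were Tdrd7, Mfng and Olfr78, with Pearson correlations of 0.997, 0.996 and 0.995 among 13006 genes. Olfr78 is an olfactory receptor found in type I cells, and it averaged 6363 in DBA/2J and 2510 in A/J. For Calcrl the most alike were Miga1, Zfp799 and Zmat2 (0.992, 0.988 and 0.983), for Ramp1 Lor, Aldh3b1 and Krtap19-1 (0.992, 0.981 and 0.978). For Ramp2 they were Gpr137, Zfp418 and Mylip (0.988, 0.988 and 0.984), and for Ramp3 Smchd1, Slco2a1 and Mbtps2 (0.996, 0.996 and 0.987). These values describe 6 arrays that share 2 strains and were picked as the highest.

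The gene next to Adm in the reference order also differed. Ampd3, an AMP deaminase, follows Adm on chromosome 7 with no other protein-coding gene between them. It read 978.9, 1049.4 and 1384.4 in DBA/2J, against 426.1, 451.1 and 552.3 in A/J, and all DBA/2J arrays were higher. Its log2 difference was 1.22 (SE 0.21, limma adjusted p = 0.0157). Sbf2 on the other side of Adm and Rnf141 and Swap70 further out had differences of 0.17, -0.01 and -0.06 on their brightest probe sets, with overlapping arrays, and none passed on any tested probe set. Ampd3 was looked at after the values of Adm were known.

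**Figure D4:**
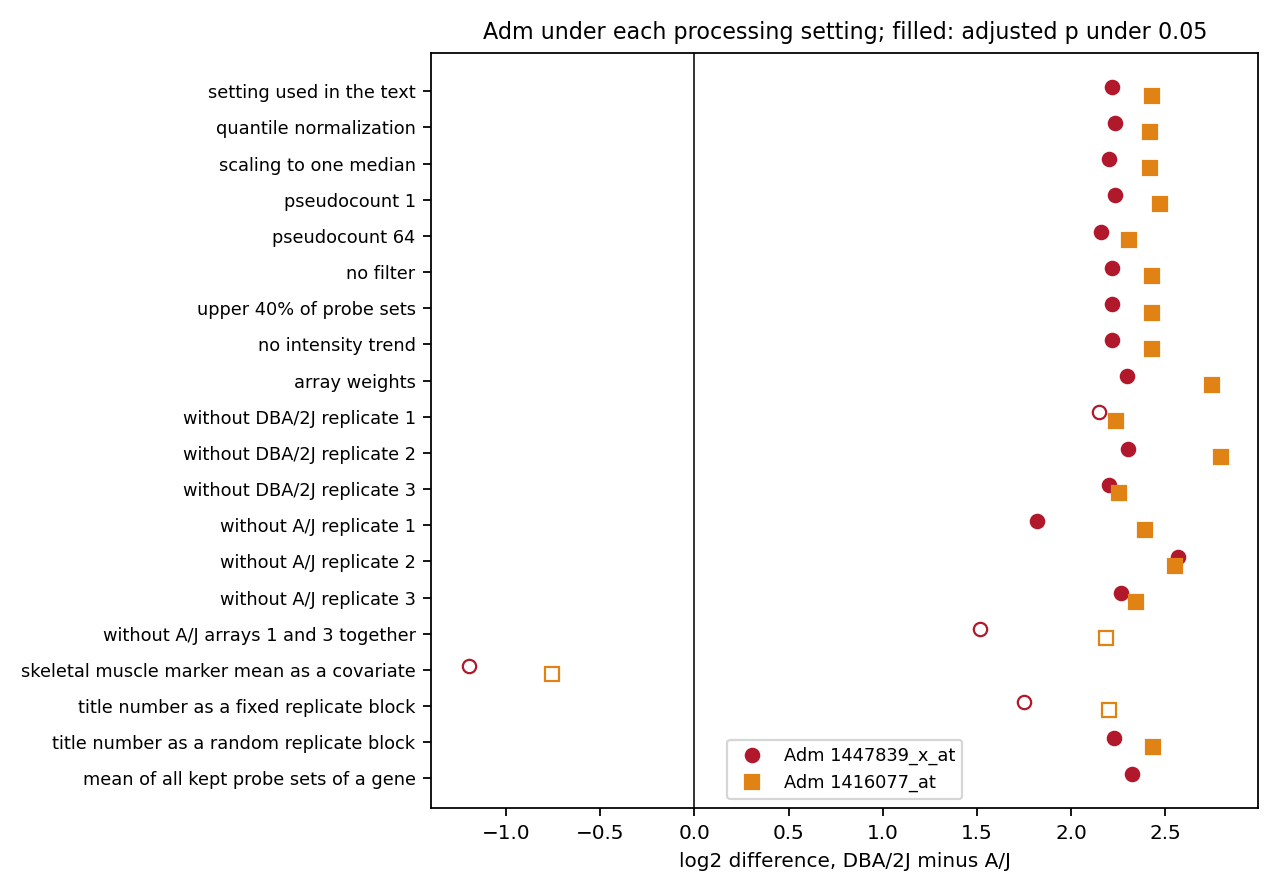
Log2 difference of Adm, DBA/2J minus A/J, on 1447839_x_at (circles) and 1416077_at (squares) under each processing setting, where filled symbols passed an adjusted p of 0.05. The circle for the mean of all kept probe sets of a gene is the mean of both Adm probe sets. All settings lie between 1.51 and 2.79 except the fit with the muscle markers as a covariate, at -1.20 and -0.76.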

How the data were processed

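Total RNA of pooled carotid bodies was extracted with Trizol and amplified and labelled by a small-sample protocol with repeated cDNA synthesis and transcription, per the labels' protocols. The labels name an oligo(dT) primer for one cDNA step. Its effect by distance from a transcript's end was not tested. The deposited values are linear intensity signals from 0.1 to 27051 whose 2%-trimmed mean is 500.0 on every array, so the authors had scaled them. The summarization software was not given in the sources used here. Precision is limited by 3 arrays per strain, each a pool.

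GEO's platform annotation named the probe sets, with symbols updated by gene identifier through RefSeq (GRCm38.p6). Of 45101, 34958 carry a single gene, 932 carry several, 9160 have no name here and 64 are controls, which were left out. These counts overlap in part and do not add up to the total. Of those with a single gene, 34754 matched RefSeq. After a log2(signal + 16) transform, the upper 60% by mean were kept. Strains were compared (DBA/2J minus A/J) by limma 3.58.1 in R 4.3.3 (lmFit, eBayes with an intensity trend, two-sided, no covariate), with Benjamini-Hochberg adjustment over 27022 probe sets at a threshold of 0.05. The brightest kept probe set stood for a gene. Figures were drawn with matplotlib 3.10.9, and the fit was tested on simulated data.

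Members and lists were chosen with earlier results of these data known. All members were named, with called pathway genes and those of smallest p to make 4 (the rest by value). The 3 highest correlations per member, without provisional symbols, were named too. Of the marker lists, Insm1 and Slc18a1 were named for the largest difference, Kcnk3 for the smallest, and Ckm and Mylpf for the smallest p. All called lymphatic and adipocyte markers were named, and further muscle markers for their low DBA/2J signal. Hypoxia targets, other pathway genes and the neighbours of Adm were named after their values were seen.

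Alternatives tried were pseudocounts of 1 and 64, quantile normalization, one common median, no filter, the upper 40%, no trend, array weights, means over probe sets, leaving out arrays, a muscle covariate and blocks by a number in the titles.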

Additional observations from a re-analysis of the deposited data

How the results depend on the processing

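The log2 difference of Adm kept its direction and its call in 15 of 19 alternatives. Among these were all changes of normalization, pseudocount, filter and variance model. The setting with means over probe sets took both Adm probe sets (2.32), and every other used 1447839_x_at. On 1447839_x_at the difference was 1.82 to 2.57 without one array (not past the threshold without DBA/2J array 1, at 2.15). It was weaker without A/J arrays 1 and 3 (1.51) and reversed with the muscle covariate (-1.20), where 1416077_at was -0.76. The count of member probe sets called, 2, was 1 to 2 without one array and 3 by the series' rule and with array weights. It was 0 without A/J arrays 1 and 3 and with the muscle covariate.

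The number that some titles share does not pair the arrays by any label. Array 2 of DBA/2J shares it with array 2 of A/J, and array 3 with array 3. Same-numbered arrays did not deviate together (correlations of deviations -0.26 for arrays 2 and 0.04 for arrays 3). Arrays 2 did, however, each have the highest Gapdh ratio (3.28 in DBA/2J, 4.87 in A/J) and the lowest Ramp2 signal of their strain. With the title number as a fixed replicate block, the results were as follows. In that fit, with 1 residual degree of freedom, 0 probe sets and 0 members were called, with Adm at 1.75 (limma adjusted p = 0.183). As a random replicate block the title number gave 848 probe sets and 2 members.

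Over the array 883 probe sets were called, and 341 to 1351 without one array, 3007 with array weights (1451 higher and 1556 lower), 63 without A/J arrays 1 and 3 and 9 with the muscle covariate. Of the 341 without DBA/2J array 1, 338 were among the 883. The pathway count of 1 (Pam) was 2 with array weights, 0 to 1 without one array, and 0 with quantile normalization, scaling to one median, a pseudocount of 1, no filter, no trend, A/J arrays 1 and 3 left out, the muscle covariate (Pam -2.72) and either block.

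Uncalled differences changed sign as follows. Calcrl 1425814_a_at was -0.0053 (without A/J array 1) to 0.31 without one array, -0.071 without A/J arrays 1 and 3, -0.046 with the fixed block and -1.85 with the muscle covariate. Ramp2 was -0.013 (without DBA/2J array 3) to 0.31 without one array and -0.0080 with the covariate. With the covariate Ramp1 was 0.20, Ramp3 -0.96 and Calcrl 1418489_a_at 0.77. The cause of these changes was not tested. Ampd3 kept its direction in all 18 alternatives and its call in 11. For dim probe sets, signal over background limits every value.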
